A study of Mus musculus with 12 samples.

Results

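Hhip and 8 other core genes of the Hedgehog pathway (Ptch1, Boc, Cdon, Gas1, Smo, Gli1, Gli2 and Gli3) were described in mouse abdominal aorta. The members were taken by gene symbol from a table of 55092 features, and all 9 were found there. All 9 also passed the filter on low values and were among the 14676 genes tested. Hhip was chosen by its FPKM in CSA and CFA aortas (named below), which had stood out in an earlier reading of these data, and the other 8 were chosen because they belong to the same pathway. Comparisons that contain that contrast or share its libraries are therefore given for the members as descriptions. Counts of members past the call limits in them are not read as tests. The comparison of the saline groups was tested. Its means come from other libraries, but the spread in the main test was pooled over all 12, so a fit of the 6 saline libraries alone is given beside it.

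Hedgehog proteins are secreted ligands that shape embryonic tissues and keep signalling between cell layers in the adult, and in the vessel wall they pass signals between endothelial, smooth muscle and adventitial cells. Without ligand, the receptor Ptch1 holds the transducer Smo inactive at the primary cilium. When ligand binds Ptch1, helped by the co-receptors Boc, Cdon and Gas1, Smo is released and the Gli transcription factors turn on target genes. Hhip, Ptch1 and Gli1 are themselves classical targets, and Hhip and Ptch1 bind ligand, so that the pathway raises its own brakes.

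RNA-Seq was performed on 12 abdominal aortas of male mice, 1 library per mouse, in 4 groups of 3. All mice carried the floxed CCN2 alleles and all received 5 doses of tamoxifen from 8 weeks of age followed by 2 weeks of washout. CCN2fl/fl mice had no Cre and kept CCN2, whereas CCN2SMCΔ mice carried Myh11-Cre-ERT2, a tamoxifen-inducible Cre driven by a smooth muscle promoter. Osmotic pumps then delivered saline or Ang II (500 ng/kg/min) until day 7. The groups are called CFS (CCN2fl/fl, saline), CSS (CCN2SMCΔ, saline), CFA (CCN2fl/fl, Ang II) and CSA (CCN2SMCΔ, Ang II), and the mice keep the numbers of their labels. The deletion reaches only cells that express the Cre, so transcripts from the other cells of the wall remain in every library.

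Values are FPKM, fragments scaled to transcript length and library size, and recovered depth ran from 14558580 fragments (CSA mouse 3) to 23107807 (CFA mouse 71). The targeted gene Ccn2 had 480 to 1108 FPKM in CFS and 436 to 640 in CSS, and these groups overlapped, so its transcript does not check the genotype labels under saline. Under Ang II it had 564 to 1105 FPKM in CFA and 255 to 399 in CSA. The CSA mean was 36.7% of the CFA mean (log2 difference -1.41). Of its exonic bases, 23.2% also belong to a second annotated gene. By qPCR the paper reports a larger loss of CCN2 mRNA in Ang II aortas. In a separate cohort it reports less CCN2 protein in CCN2SMCΔ aortas under both saline and Ang II. The summed level of 8 smooth muscle markers was 5656 to 10458 FPKM in the 9 libraries outside CSA and 879 to 1012 in CSA, where Acta2 still had 683 to 774 FPKM and Myh11 35.4 to 46.5. The labelled tissue was thus matched by its defining markers in every library, at a lower level in CSA. In whole tissue, fewer cells of a type and less RNA per cell cannot be told apart, and this holds for every gene below.

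Promoter sequence was read for Hhip and Ptch1, the ligand-binding members that are also targets of the pathway, because their levels parted in CSA. RefSeq windows on GRCm38.p6 reach from 250 bases before the start that RefSeq annotates to 50 bases after it and were matched for 7 of the 9 members. That start lay 7863 bases inside the gene span that GENCODE annotates for Ptch1 and 30948 bases inside that for Cdon, so their windows are not at the outer end of that span, whereas for Hhip the starts were 2 bases apart. The 250 bases before the start are shown 5′ to 3′ on the strand of the gene, with each CpG in capitals, for Hhip at chr8:80058009-80058258 and for Ptch1 at chr13:63565736-63565985, both on the minus strand.
Hhip: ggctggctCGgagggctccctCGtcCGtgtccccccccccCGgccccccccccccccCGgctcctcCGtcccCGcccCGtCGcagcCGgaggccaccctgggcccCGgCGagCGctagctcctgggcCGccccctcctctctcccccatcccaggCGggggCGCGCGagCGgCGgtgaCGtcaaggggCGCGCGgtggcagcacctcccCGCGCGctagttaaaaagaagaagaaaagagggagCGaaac
Ptch1: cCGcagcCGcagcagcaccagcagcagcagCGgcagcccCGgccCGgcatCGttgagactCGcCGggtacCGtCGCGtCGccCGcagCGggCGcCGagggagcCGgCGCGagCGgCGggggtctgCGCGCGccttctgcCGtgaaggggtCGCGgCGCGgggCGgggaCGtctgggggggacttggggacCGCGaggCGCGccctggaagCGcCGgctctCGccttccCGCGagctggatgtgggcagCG

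The printed stretch held 28 CpG for Hhip and 41 for Ptch1. Over the whole window of 300 bases the GC content was 73.7% for Hhip and 76.3% for Ptch1, against a median of 52.7% over 32851 windows of the same length. Both windows are thus GC-rich. The Gli consensus GACCACCCA, read on both strands, was in 0 of the 7 member windows and in 0.253% of all windows. Its core CCACCCA, which lies within the consensus, was in 0 of the 7 and in 9.30% of all windows. The CArG box, the motif of serum response factor in smooth muscle genes, was in 0 of the 7 and in 1.63% of all windows. It was also in 0 of 7 windows of the smooth muscle markers (6 genes), so this search does not set the members apart from them. These counts say only that the letters are not in these windows.

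Hhip (ENSMUSG00000064325, chromosome 8, 79965851 to 80058006, minus strand, GRCm38) encodes a membrane-bound decoy that captures Hedgehog ligands without passing the signal on. Its FPKM was 7.81, 9.75 and 6.26 in CFS mice 68, 69 and 70, and 11.4, 10.9 and 11 in CSS mice 54, 55 and 56. It was 15.1, 12.1 and 11.3 in CFA mice 71, 72 and 74, and 0.147, 0.145 and 0.280 in CSA mice 1, 2 and 3. The 3 CSA mice were far below the other 9, which ranged from 6.26 to 15.1, and no CSA value came near those of another group. The mean was 12.8 ± 2.04 FPKM in CFA but 0.191 ± 0.0776 among CSA mice (SD, n = 3 each), so that CSA held 1.49% of the CFA level. On the scale of log2(FPKM + 0.1), the difference of CSA from CFA was -5.49 (standard error 0.21) and that from CSS was -5.30 (standard error 0.21). The remaining signal rested on 27, 28 and 39 fragments in the 3 CSA libraries, against 2169 to 2991 in CFA, and the pseudocount of 0.1 understates the difference at such low values. Of its exonic bases, 1.93% also belong to a second annotated gene.

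**Figure D1:**
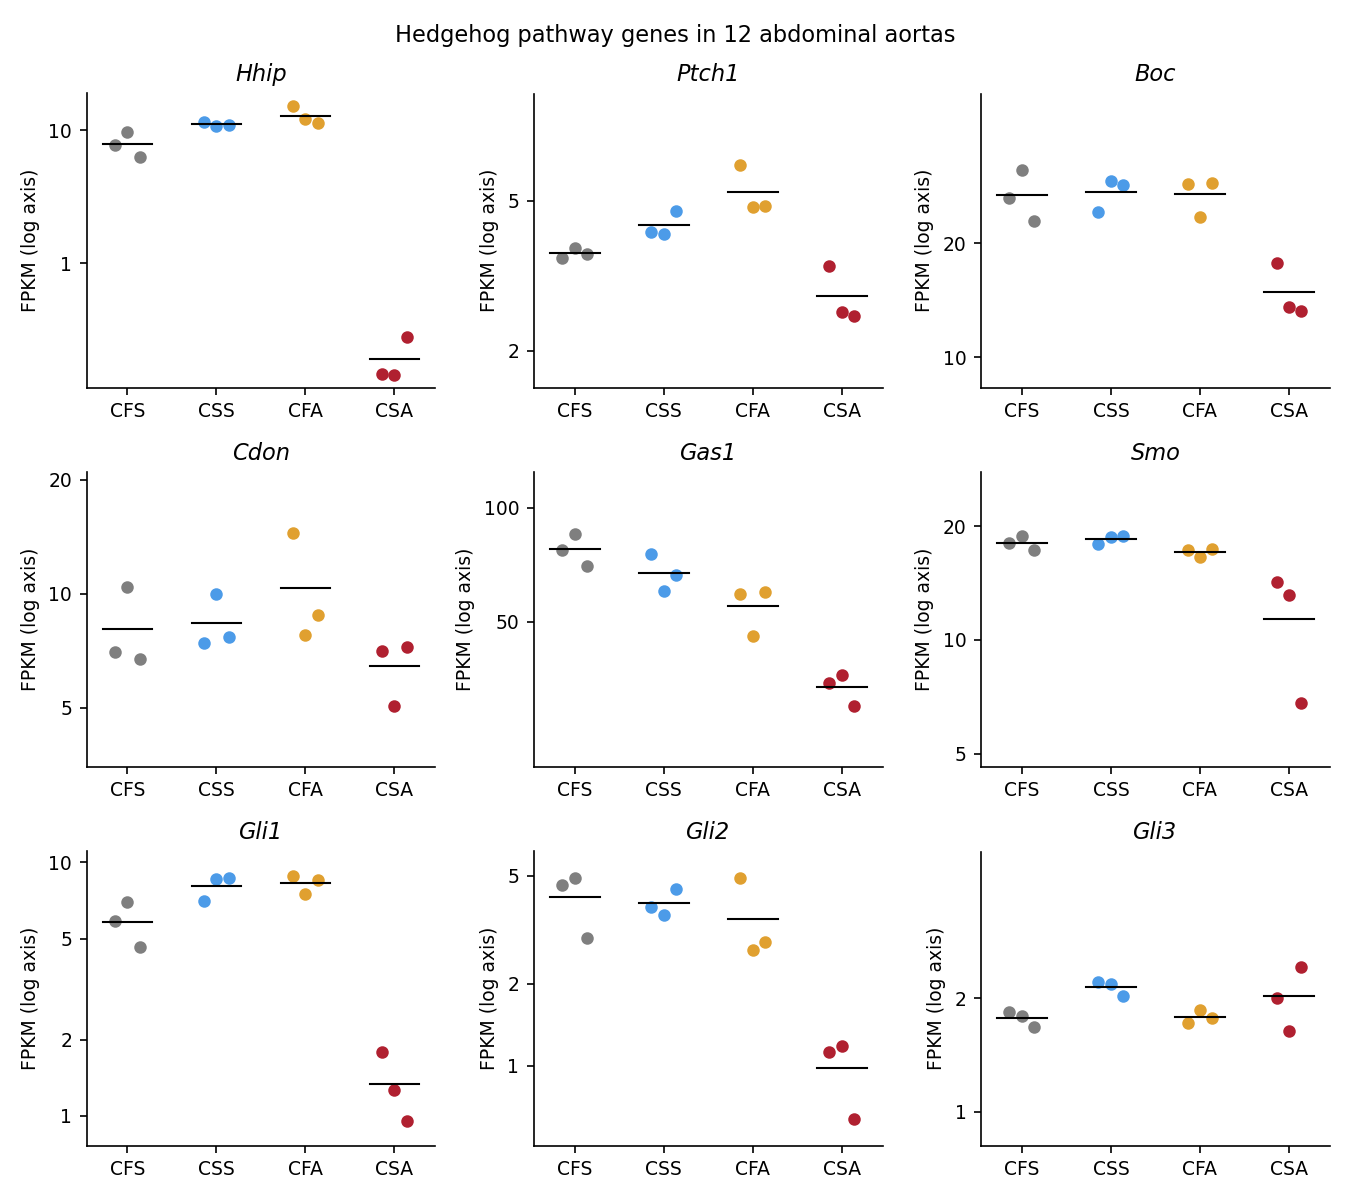
FPKM of the 9 genes (1 panel each, log axis with its own range) in the 4 groups; each point is 1 mouse and each black line the mean of 3 mice. Hhip lies at 6.26 to 15.1 FPKM in the 9 mice outside CSA and at 0.145 to 0.280 in CSA, whereas Gli3 lies between 1.64 and 2.42 in all 12.

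Ptch1 (ENSMUSG00000021466, chromosome 13, 63508328 to 63573598), the receptor that binds ligand and restrains Smo, differed far less. Its FPKM was 3.52, 3.74 and 3.61 in CFS, 4.12, 4.08 and 4.69 in CSS, 6.19, 4.81 and 4.83 in CFA, and 3.36, 2.54 and 2.48 in CSA. The CSA mice were the lowest of the 12, but CSA mouse 1 lay close to the CFS mice. The CSA mean was 52.9% of the CFA mean, a log2 difference of -0.90 (standard error 0.15). Within each mouse, Hhip had 1.73 to 2.78 times the FPKM of Ptch1 outside CSA and 0.0436 to 0.113 times in CSA, so the order of these 2 ligand-binding proteins was turned over in all 3 CSA mice.

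The co-receptors present ligand to Ptch1. Boc (ENSMUSG00000022687, chromosome 16, 44485049 to 44558897) had 26.4, 31.3 and 23.0 FPKM in CFS, 24.2, 29.3 and 28.6 in CSS, 28.8, 23.4 and 29.0 in CFA, and 17.7, 13.6 and 13.3 in CSA. Its CSA mean was 54.9% of the CFA mean (log2 difference -0.87, standard error 0.16), with all CSA mice below the other 9. Gas1 (ENSMUSG00000052957, chromosome 13, 60174405 to 60177365), a GPI-anchored co-receptor, was the most abundant member, with 77.3, 85.6 and 70.1 FPKM in CFS, 75.3, 60.5 and 66.4 in CSS, 59.3, 45.9 and 60.1 in CFA, and 34.4, 36.2 and 30.02 in CSA. Its CSA mean was 60.8% of the CFA mean and 49.7% of the CSS mean (log2 difference -0.71 from CFA, standard error 0.15), and the CSA mice were again the lowest. Of the exonic bases of Gas1, 19.9% also belong to a second annotated gene, so part of its fragments could have been divided or dropped. Cdon (ENSMUSG00000038119, chromosome 9, 35421128 to 35507652), a relative of Boc, had 7.00, 10.4 and 6.72 FPKM in CFS, 7.40, 9.96 and 7.70 in CSS, 14.5, 7.79 and 8.80 in CFA, and 7.04, 5.05 and 7.25 in CSA. Its CSA mean was 62.3% of the CFA mean (log2 difference -0.64, standard error 0.26), but the CSA and CFS ranges overlapped, and CFA mouse 71 alone stood above 11 FPKM. That difference was -0.37 without CFA mouse 71 and -1.06 with array weights.

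Smo (ENSMUSG00000001761, chromosome 6, 29735503 to 29761365), the membrane protein that carries the signal inward, was the steadiest member outside CSA. Its FPKM was 18.0, 18.8 and 17.3 in CFS, 18.0, 18.7 and 18.8 in CSS, 17.2, 16.6 and 17.4 in CFA, and 14.2, 13.1 and 6.80 in CSA. CSA mice 1 and 2 lay close under the other groups and mouse 3 well below them. The log2 difference of CSA from CFA was -0.65 (standard error 0.22) and was -0.32 without CSA mouse 3.

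The Gli factors did not move alike. Gli1 (ENSMUSG00000025407, chromosome 10, 127329882 to 127341974), an activator and the most widely used readout of the pathway, had 5.89, 6.98 and 4.62 FPKM in CFS, 7.02, 8.59 and 8.68 in CSS, 8.84, 7.54 and 8.55 in CFA, and 1.79, 1.26 and 0.954 in CSA. The CSA mice lay below all others, at 16.1% of the CFA mean and 16.5% of the CSS mean (log2 differences -2.59 and -2.55, standard error 0.22 each). Gli1 shares 6.55% of its exonic bases with other annotated genes. Gli2 (ENSMUSG00000048402, chromosome 1, 118834132 to 119053619), the main activator downstream of Smo, had 4.61, 4.90 and 2.95 FPKM in CFS, 3.83, 3.58 and 4.46 in CSS, 4.88, 2.65 and 2.86 in CFA, and 1.13, 1.19 and 0.637 in CSA. Its CSA mean was 28.4% of the CFA mean (log2 difference -1.71, standard error 0.29), and no CSA mouse overlapped another group. That difference was -1.44 without CFA mouse 71 and -1.45 without CSA mouse 3, both less than 1.5 in size. Gli3 (ENSMUSG00000021318, chromosome 13, 15463235 to 15730026), which acts mainly as a repressor, had 1.84, 1.79 and 1.67 FPKM in CFS, 2.21, 2.18 and 2.03 in CSS, 1.72, 1.86 and 1.78 in CFA, and 2.0, 1.64 and 2.42 in CSA. Gli3 was the 1 member whose CSA and CFA ranges overlapped, and its log2 difference was 0.15 (standard error 0.17).

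By FPKM, Gli1 and Gli2 were thus above Gli3 outside CSA and below it in CSA, while Gli3 itself hardly differed. These are RNA levels, and the activity of the proteins was not measured. The ratio of Gli1 to Gli3 within a mouse was 2.76 to 5.14 outside CSA and 0.394 to 0.898 in CSA, and that of Gli2 to Gli3 was 1.43 to 2.84 outside CSA and 0.263 to 0.723 in CSA. The ratio of Gli1 to Ptch1 was 1.28 to 2.10 outside CSA and 0.385 to 0.534 in CSA, so that Gli1 was above the receptor in 9 mice and below it in the 3 CSA mice. In none of these ratios did CSA overlap the other groups. The ratios restate the levels given above, and they include the libraries that chose Hhip. No share over other pairs of genes is given, so nothing is read from this lack of overlap.

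**Figure D2:**
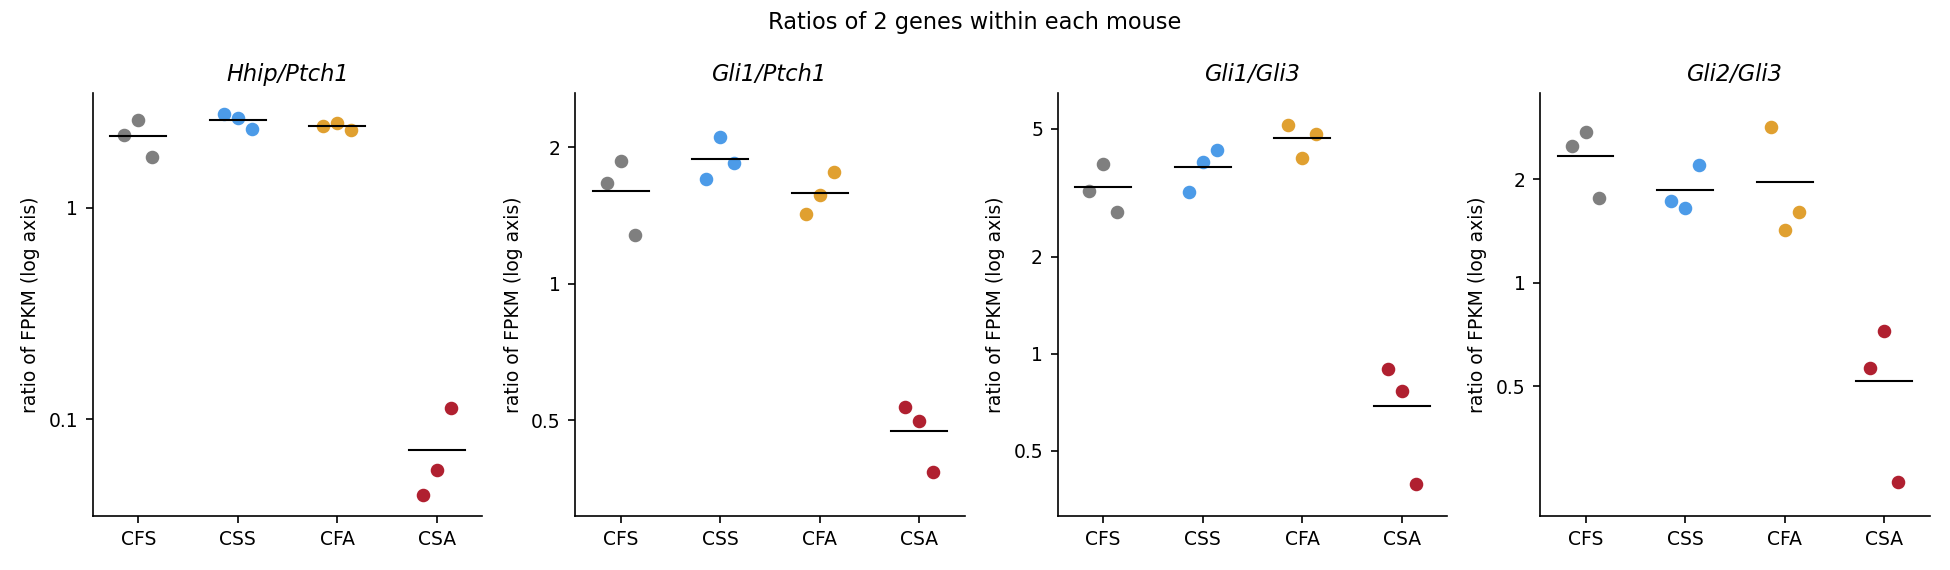
Ratio of the FPKM of 2 genes within each mouse (log axis); points are mice, black lines the mean of 3. All 3 CSA mice lie below the other 9 in each panel, at 0.0436 to 0.113 for Hhip/Ptch1 and 0.394 to 0.898 for Gli1/Gli3.

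Since FPKM is per length, levels can be ordered between genes. By mean FPKM over the 9 mice outside CSA the order was Gas1 (66.7), Boc (27.1), Smo (17.9), Hhip (10.6), Cdon (8.92), Gli1 (7.41), Ptch1 (4.40), Gli2 (3.86) and Gli3 (1.90). The ranges of Hhip, Cdon, Gli1, Ptch1 and Gli2 overlapped from each to the next, although within a mouse Gli1 was above Ptch1 in all 9, at a ratio of 1.28 to 2.10. In CSA the order was Gas1 (33.5), Boc (14.9), Smo (11.4), Cdon (6.45), Ptch1 (2.79), Gli3 (2.02), Gli1 (1.34), Gli2 (0.983) and Hhip (0.191). Boc, Smo and Cdon overlapped from each to the next there, as did Gli3, Gli1 and Gli2. Hhip stood alone at the bottom, having been in position 4 by mean FPKM outside CSA. Within CFS alone Hhip (7.94) was in position 5, below Cdon (8.04), and Gli2 (4.15) was above Ptch1 (3.63), with overlapping ranges in both pairs.

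Over the 9 members, 8 had CSA mice all below the CFA mice, where 25.1% of all tested genes did, and 3 of 9 (Hhip, Gli1 and Gli2) were past both limits used for a call, which are an adjusted p below 0.05 and a log2 fold change beyond 1.5 in either direction. Of all tested genes 17.2% were past both limits, and 8.27% were so on the lower side. The median log2 difference of the members was -0.87, beside -0.04 over all genes tested. Nothing is read from these counts, since the contrast chose Hhip. Against CSS, which shares the CSA libraries, the same 8 genes did not overlap, where 29.1% of all tested genes lay lower without overlap, and the same 3 were past both limits, where 20.3% were (9.36% on the lower side). With a pseudocount of 1, Gli2 was short of the fold limit against both CFA (-1.15) and CSS (-1.33). The difference between the genotype differences under Ang II and under saline was -6.00 for Hhip (standard error 0.30), -3.07 for Gli1 (0.31), -1.67 for Gli2 (0.42), -1.13 for Ptch1 (0.22) and -0.11 for Gli3 (0.23), all on the log2 scale, and 15.2% of all tested genes were past both limits in this contrast.

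**Figure D3:**
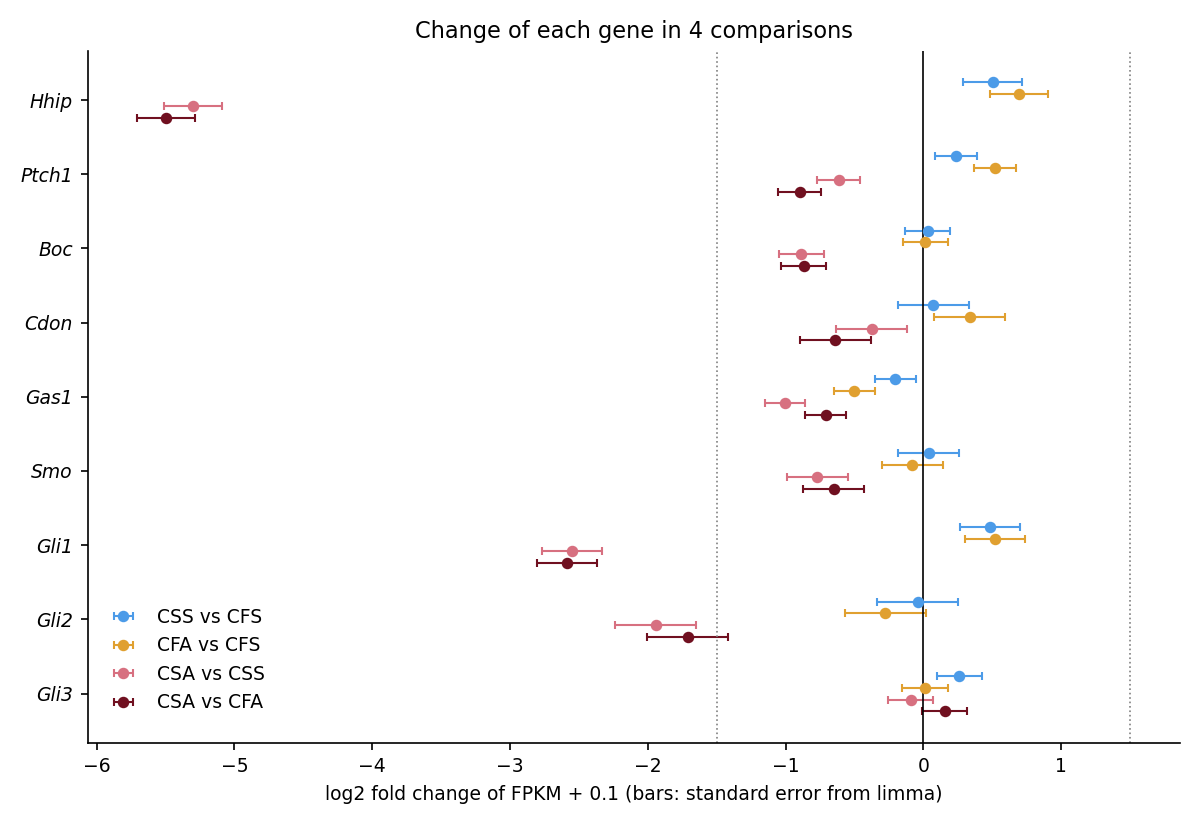
Log2 fold change of FPKM + 0.1 for the 9 genes in 4 comparisons; points are estimates from limma, bars their standard errors and dotted lines the fold limit of 1.5. Hhip stands at -5.49 (CSA vs CFA) and -5.30 (CSA vs CSS), Gli1 and Gli2 follow, and all values of CSS vs CFS and CFA vs CFS lie between -0.50 and 0.70.

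Under saline, where the members were tested, no member was called. Hhip was higher in every CSS mouse (10.9 to 11.4 FPKM) than in any CFS mouse (6.26 to 9.75), a log2 difference of 0.50 with a 95% interval of 0.04 to 0.97. Its unadjusted p was 0.0371 and its adjusted p 0.735 (limma with Benjamini-Hochberg adjustment over all genes tested), and a two-sided exact permutation test gave p = 0.1, the smallest that 3 against 3 allow. Gli1 had a difference of 0.48 (interval -0.00 to 0.96, limma adjusted p = 0.790), Gli3 one of 0.26 (-0.10 to 0.63, adjusted p = 0.941) and Ptch1 one of 0.24 (-0.11 to 0.58, adjusted p = 0.961). These 4 genes did not overlap between the groups, all with CSS higher, where 11.1% of all tested genes did so. The other 5 overlapped, with differences from -0.21 (Gas1, limma adjusted p = 0.989) to 0.07 (Cdon). By limma, 0 of 9 members were called, and 1 of 9 (Hhip) had an unadjusted p under 0.05, where 0.0136% of all tested genes were called and 6.3% had such a p. In the fit of the saline libraries alone, Hhip had a standard error of 0.16 in place of 0.21, an interval of 0.13 to 0.88 and a limma adjusted p of 0.241, and Gli1 an interval of 0.08 to 0.88 and a limma adjusted p of 0.283. In that fit 2 of 9 members had an unadjusted limma p under 0.05, Hhip (0.0159) and Gli1 (0.0255), and no member was called. The share of all tested genes with such a p in that fit is not given here. Over the alternative fits, the adjusted p of Hhip ran from 0.115 to 1.

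Ang II in CCN2fl/fl mice was also compared with saline in the same genotype. Hhip, Ptch1 and Gli1 were higher in all CFA mice than in any CFS mouse, at 161%, 146% and 143% of the CFS mean (log2 differences 0.70, 0.52 and 0.52), and 9.44% of all tested genes lay higher without overlap. Gas1 lay lower without overlap, at 70.9% of the CFS mean (log2 difference -0.50), as 10.8% of all tested genes did. This comparison shares the CFS mice with the saline comparison. Boc, Smo and Gli3 differed by 0.01, -0.08 and 0.01 on the log2 scale. No member was past both limits here, where 0.0273% of all tested genes were. CFA mouse 71 had the highest value of its group in 5 of the 9 members (Hhip, Ptch1, Cdon, Gli1 and Gli2), and without it the Hhip difference was 0.57. In CFS, mouse 69 was the highest in 8 members and mouse 70 the lowest in 8, so that the members also varied together between mice of 1 group. In CSA, mouse 3, which had the smallest depth, was the lowest in 6 members and the highest in Hhip, Cdon and Gli3.

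The genes around the core were described from a list of 59 genes in 5 roles, of which 49 were tested. Between CSA and CFA, 9 of the 49 were called by limma, 7 lower and 2 higher in CSA, where 17.2% of all tested genes were called. The median log2 fold change of the list was -0.65, beside -0.04 over all genes tested. Against CSS 14 were called (11 lower, 3 higher; background 20.3%). Between CSS and CFS 0 were called and 4 had an unadjusted p under 0.05, where 0.0136% of all tested genes were called and 6.3% had such a p, and between CFA and CFS 0 were called and 8 had an unadjusted p under 0.05, where 9.42% of all tested genes did.

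Of the ligands and proteins for their release, 3 of 4 tested genes fell between CFA and CSA and 0 rose. Of all tested genes 17.2% were called there, and 8.27% were called lower. Ihh was tested only through its level outside CSA. With a pseudocount of 1 the calls of Ihh (-1.06) and Dhh (-1.42) were lost, which left 1 of 4. Shh, the Sonic ligand, was listed at 0 in all 12 libraries, where 3 fragments would be 0.0484 to 0.0688 FPKM. Dhh, the Desert ligand known from endothelium and Schwann cells, had 4.17, 0.620 and 4.40 FPKM in CFS, 4.51, 4.32 and 4.41 in CSS, 4.12, 2.12 and 4.68 in CFA, and 0.896, 0.611 and 0.549 in CSA. CFS mouse 69 lay among the CSA mice, and the other 8 mice outside CSA stood above them. Dhh fell by 2.20 on the log2 scale from CFA to CSA (standard error 0.59, limma adjusted p = 0.0123), and 25.2% of its exonic bases are shared with other annotated genes. Ihh, the Indian ligand, had 0.408, 0.438 and 0.399 FPKM in CFS, 1.47, 0.921 and 1.40 in CSS, 1.66, 1.67 and 0.371 in CFA, and 0.0162, 0.0619 and 0 in CSA. The CSA values rested on 1, 4 and 0 fragments, against 24 to 110 in CFA, and Ihh fell by 3.20 (standard error 0.52, limma adjusted p = 0.000524). Ihh reached 1 FPKM only in CSS mice 54 and 56 and CFA mice 71 and 72, so it passed the filter through groups where it is high. Without the filter, over 31190 genes, the limma adjusted p was 0.000661. CFA mouse 74 lay with the CFS mice and not with its own group. Scube3, a secreted protein of the family that helps release ligand, fell from 42.5 ± 1.84 FPKM in CFA to 4.85 ± 2.04 in CSA (SD, n = 3 each; log2 fold change -3.18, limma adjusted p = 3.83e-06).

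The summed level of 5 endothelial markers was 97.2 to 126 FPKM in CSA and 178 to 382 in 8 of the 9 mice outside CSA, with CFS mouse 69 at 82.4. CFS mouse 69 and the 3 CSA mice were thus the lowest 4 mice both for Dhh and for this sum. Of the 5 markers 2 fell between CFA and CSA (Pecam1 and Vwf) and 3 were not called. Of all tested genes 17.2% were called there, and 8.27% were called lower. Cdh5 had 32.1 to 45.1 FPKM in CSA and 35.6 to 58.8 in CFA. Kdr lay the other way, at 5.37 to 8.69 FPKM in CSA and 2.45 to 5.36 in CFA (log2 fold change 0.92, limma adjusted p = 0.0809), and against CSS it was called higher (1.59, limma adjusted p = 0.00593). The part of endothelium in the ligand values was not tested.

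**Figure D4:**
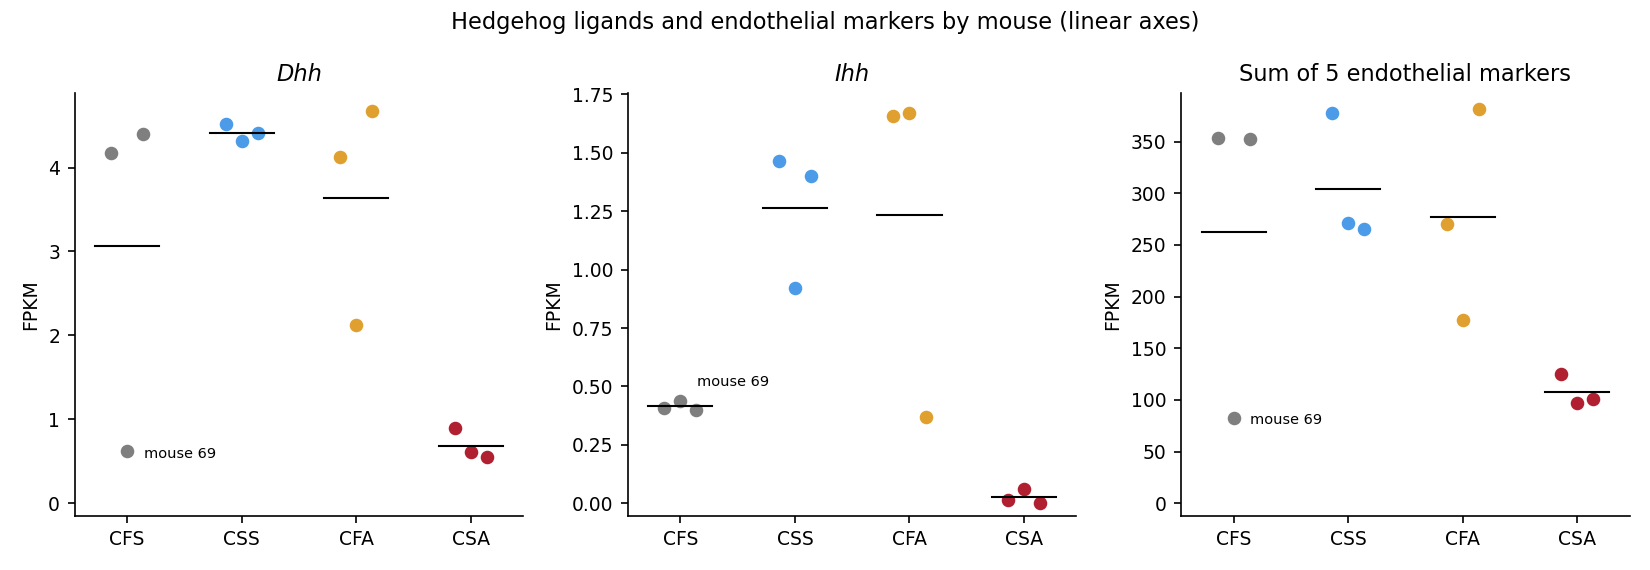
FPKM of Dhh and Ihh and the sum of 5 endothelial markers (Pecam1, Cdh5, Vwf, Kdr, Tie1) by group (linear axes); points are mice, black lines the mean of 3. CFS mouse 69 lies low for Dhh (0.620) and for the sum (82.4) but with its group for Ihh (0.438).

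Among the other receptors and binding proteins, Gpc3, a glypican that competes with Ptch1 for ligand, had 31.6, 42.9 and 42.8 FPKM in CFA and 6.63, 4.96 and 5.36 in CSA, and fell by 2.76 on the log2 scale (limma adjusted p = 9.95e-07).

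Of the ciliary and Smo-proximal transducers 1 of 16 tested genes fell, 1 rose and 14 were not called, where 17.2% of all tested genes were called. Gpr161, a ciliary receptor that holds the pathway off, was at 5.46 ± 0.495 FPKM in CFA mice, against 1.85 ± 0.241 in CSA mice (SD, n = 3 each; log2 fold change -1.51, limma adjusted p = 2.07e-05). It lay at the fold limit and was past it no longer without CFA mouse 71 (-1.48), CFA mouse 72 (-1.47), CSA mouse 1 (-1.44) or CSA mouse 2 (-1.48). Arrb2, a β-arrestin abundant in leukocytes that also acts on Smo, rose from 5.18, 10.2 and 5.60 FPKM in CFA to 69.1, 64.8 and 46.1 in CSA (log2 fold change 3.13, limma adjusted p = 5.11e-06). Over the 16 genes the median log2 fold change was -0.68.

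Of the Gli regulators, the kinases, ubiquitin ligases and Sufu, 0 of 11 tested genes were called by limma, 2 had an unadjusted p under 0.05, where 49.0% of all tested genes did, and the median log2 fold change was -0.10. Of the other target genes 1 of 12 tested fell, 1 rose and 10 were not called, where 17.2% of all tested genes were called. Osr1, a transcription factor of mesenchyme, fell from 59.2 ± 11.5 FPKM in CFA to 14.7 ± 3.65 in CSA (SD, n = 3 each; log2 fold change -2.02, limma adjusted p = 1.95e-05). Sfrp1, a secreted Wnt antagonist, rose from 51.4, 44.3 and 57.1 FPKM in CFA to 274, 268 and 362 in CSA (log2 fold change 2.56, limma adjusted p = 0.00117). Of the 12, 10 had a log2 fold change below 0, 9 had a limma adjusted p under 0.05 before the fold limit, where 40.7% of all tested genes did, and the median was -0.76, beside -0.04 over all tested genes.

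**Figure D5:**
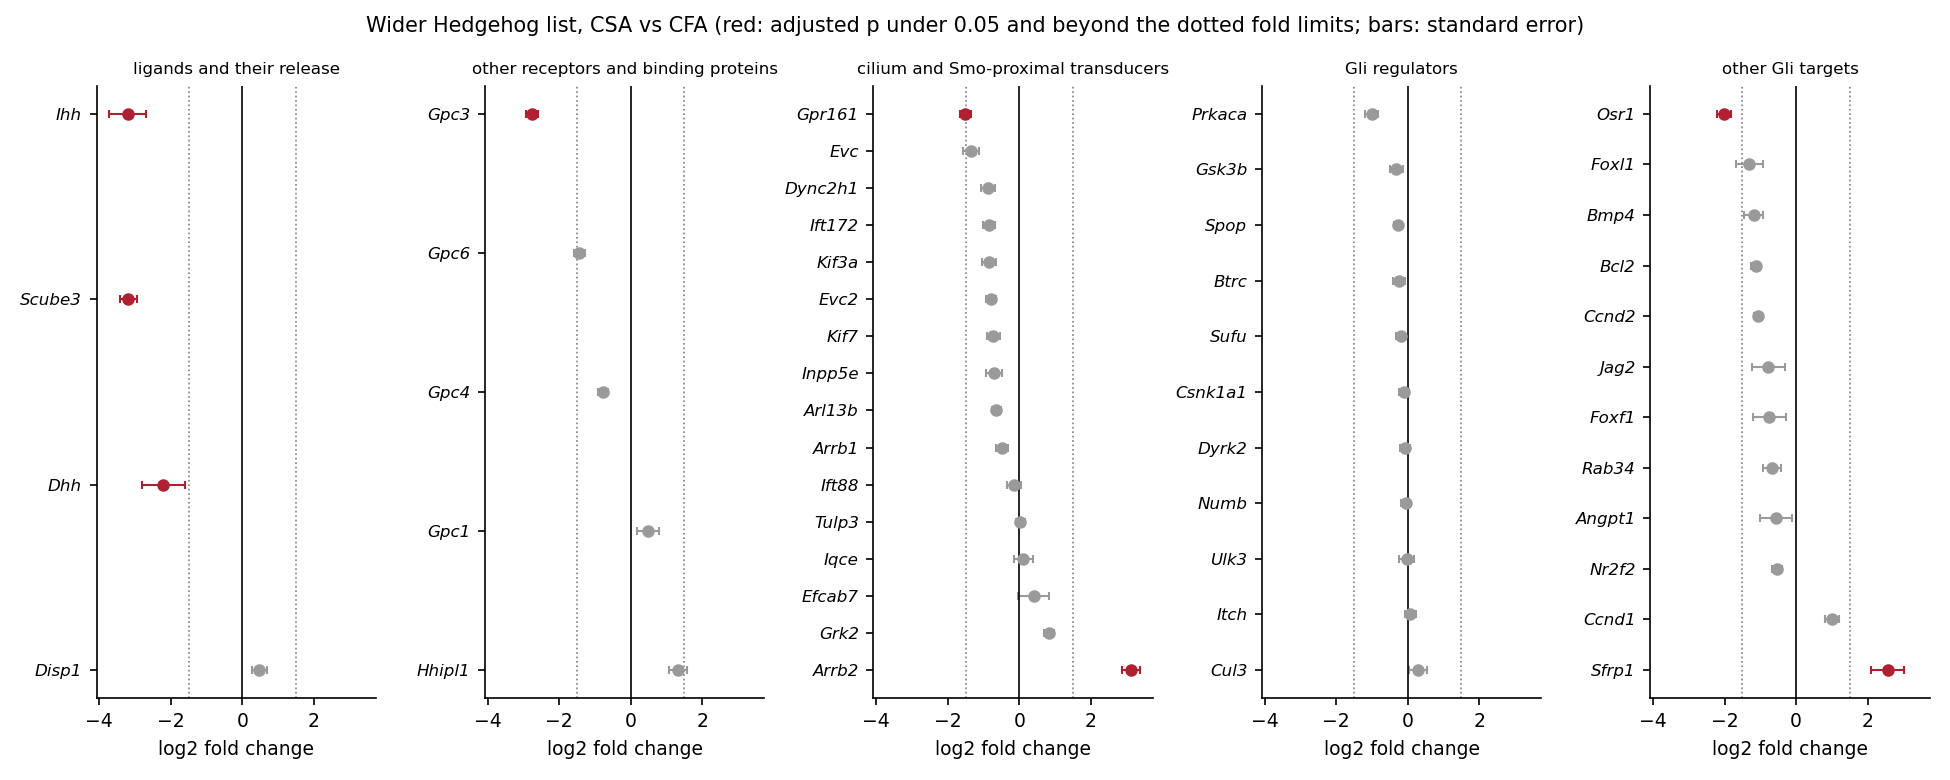
Log2 fold change of CSA vs CFA for tested genes of the wider list in 5 roles; bars are standard errors from limma, red marks called genes and dotted lines the fold limit of 1.5. Of the ligand group 3 of 4 genes lie past the lower limit, and none of the 11 Gli regulators lies past either limit. Of all tested genes 17.2% were called.

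Markers of several cell types moved between CSA and CFA beside the Hedgehog genes. The counts below stand against 17.2% of all tested genes called and 49.0% with an unadjusted p under 0.05. Of 8 smooth muscle markers 7 fell in CSA, and within a mouse Hhip per Myh11 was 0.00665 to 0.0206 outside CSA and 0.00386 to 0.00602 in CSA. Myh11 marks contractile smooth muscle. In a comparison added after the data were seen, Hhip and Gli1 were taken per each of the 8 markers in turn. Hhip was lower in every CSA mouse than in every other mouse for 7 markers and overlapped for Cnn1. Gli1 was higher in CSA for 3 markers and overlapped for 5, so the place of Gli1 depends on the marker. For Tagln, 1 of the 8, 67.9% of exonic bases also belong to other annotated genes. Part of its fragments could have been divided or dropped, and it had 14.6 to 25.0 FPKM outside CSA. The CSA values of Hhip chose the gene, so nothing is read from its ratios. The summed markers of fibroblasts and adventitia were 1225 to 2295 FPKM outside CSA and 3788 to 4490 in CSA (2 of 8 rose, 0 fell), those of macrophages 144 to 441 and 1325 to 1562 (4 of 5 rose), those of T cells 0.0711 to 2.44 and 18.8 to 26.1, and those of neutrophils 2.66 to 20.9 and 430.5 to 495, with Ly6g at 0 in CSA mice 2 and 3. Markers of cell division summed to 0.668 to 22.1 outside CSA and 26.9 to 45.1 in CSA, those of adipocytes to 138 to 2534 and 88.1 to 275 (2 of 5 fell, with Lep at 0 in CSA mouse 3), and those of Schwann cells to 3.61 to 23.5 and 13.8 to 18.1 (0 of 4 called by limma, 2 with an unadjusted p under 0.05). Skeletal muscle markers summed to 152 in CFS mouse 68 and 244 in CSS mouse 55 and to 2.58 to 5.56 in the other mice (0 of 4 tested called by limma, 0 with an unadjusted p under 0.05). No count of calls is given for T cells, neutrophils and cell division, since their lists hold genes that reached 1 FPKM in fewer than 3 mice outside CSA and so passed the filter only with the CSA mice, as did Dpp4, 1 of the 2 fibroblast markers that rose. Within the fibroblast list the members differed in direction. Col1a1, a collagen chain, made up much of the sum with 2561 to 3262 FPKM in CSA, whereas Cd34 (log2 fold change -1.45, limma adjusted p = 7.00e-06) and Pi16 (-1.17, 0.00367), markers of adventitial cells, were lower in every CSA mouse than in every CFA mouse, short of the fold limit. The part of these cell types in the Hedgehog values was not tested.

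The genes whose log2(FPKM + 0.1) was most like that of Hhip over the 12 libraries were Sema3c (Pearson r = 0.997), Egflam (0.996), Dsp (0.994), Tspan2 (0.993) and Sspn (0.991). Each shared the low level of CSA, Sema3c being at 33.6 ± 4.47 FPKM in CFA and 2.25 ± 0.537 in CSA and Dsp, a desmosomal protein, at 12.9 ± 2.58 and 0.961 ± 0.340 (SD, n = 3 each). Over the 9 libraries outside CSA the 5 most alike were Col4a5 (0.970), Gm19705 (0.969), March8 (0.968), Stx11 (0.957) and Dsp (0.955), so that 1 gene, Dsp, was in both sets. Dsp was also among the 5 most alike by Spearman rank correlation over the 12 libraries, with Htra1, Nucb1, Fkbp9 and Igfbp7. Gli1 was most like Trnp1, Slc2a10, Creb3l2, Col4a5 and Ldlrad4 over the 12 libraries (0.984 to 0.987). Among the members Hhip was most like Gli1, with r = 0.968 over the 12 libraries and 0.894 over the 9 outside CSA, followed outside CSA by Ptch1 (0.854). Outside CSA its r was -0.49 with Gas1, -0.12 with Smo and 0.16 with Gli2, while over all 12 these were 0.837, 0.740 and 0.909. These values describe 12 libraries that share groups and are given without a test.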

How the data were processed

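The authors deposited FPKM per gene and mouse, without pooling, in 1 table. Per the submitters' processing notes the tools were HISAT2 2.0.5, StringTie 1.3.3b and featureCounts 1.5.0-p3 on mm10, with no role stated; whether strand was used in counting is not given in the sources used here, so overlapping and antisense genes cannot be told apart. With exon lengths of GENCODE M21, whole fragments (within 0.05) were recovered for 98.0% to 98.5% of values below 100, and their sums were taken as depth. These limits cover counting error only. The deposited values carry a scaling between libraries that gives them equal median ratios. The log2(FPKM + 0.1) values were fitted with limma 3.58.1 in R 4.3.3 (trend and robust settings, 1 coefficient per group, 12 libraries) over 14676 genes (FPKM of 1 or more in 3 or more libraries), with Benjamini-Hochberg adjustment. Calls required an adjusted p below 0.05 together with a log2 fold change beyond 1.5 in either direction. The code was first tested on simulated data. Each library came from a separate mouse.

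The members and the lists were chosen with earlier results of these data known. The text names the 9 members, the 3 ligands, up to 3 called genes with the largest change in each role, the 5 genes most like Hhip (over 12 and over 9 libraries) and Gli1, Ccn2 and the marker lists. A gene that the rule selects is not reported here. Members were compared in the saline groups also by exact permutation. Alternatives were a pseudocount of 1, no filter, a mean FPKM of at least 5, other scalings, plain eBayes, array weights, fits of only the groups compared, other call limits and leaving out each mouse. Promoters are from RefSeq. Tables were computed in Python 3.11.15 (scipy 1.17.1, numpy 2.4.6, pandas 2.3.3), and matplotlib 3.10.9 drew the figures.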

Additional observations from a re-analysis of the deposited data

Results flagged for a closer look

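The genotype difference under Ang II was set against that under saline by limma's interaction term over all tested genes, with Benjamini-Hochberg adjustment, and for 8 named genes of the wider list the term passed the adjusted p limit of 0.05 and the fold limit. These genes were named for their change between CSA and CFA, which the term contains, so their terms are no independent finding. Past both limits were 10 of the 49 tested genes of the list and 15.2% of all tested genes. On the log2 scale the excess under Ang II was -4.58 for Ihh (adjusted p = 0.00112), -3.11 for Dhh (0.0189) and -3.24 for Scube3 (0.000109), the 3 ligand and release genes. It was -2.68 for Gpc3 (adjusted p = 3.83e-05), -1.77 for Gpr161 (0.00023) and -1.88 for Osr1 (0.000767), but with a pseudocount of 1 Gpr161 was at -1.41, short of the fold limit. In the other direction it was 2.76 for Arrb2 (adjusted p = 0.00031) and 2.17 for Sfrp1 (0.0313). CFS mouse 69 had 10.3 FPKM of Sfrp1, beside 44.9 to 46.0 in the other CFS mice, and the adjusted p of Sfrp1 was 0.0513 to 0.075 in 9 of the 12 fits that left out 1 mouse and 0.0583 without the filter on low values.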

How the results depend on the processing

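Of 876 values of the members under alternatives, 856 stayed within the spread between replicates and 20 moved. Many of the 876 could hardly have moved. The filters, plain eBayes and fits of only the groups compared leave a log2 difference as it was. The median-of-ratios factor was the same in every library (1.01), and leaving out a mouse from a group outside a comparison changes nothing in it. The 856 are therefore no measure of how firm the values are. In 18 the sign changed, all in 7 differences of at most 0.11 in size (Boc and Gli3 in CFA vs CFS, Boc, Cdon and Gli2 in CSS vs CFS, Gli3 in CSA vs CSS and in the interaction). The CSA vs CFA difference of Hhip was -3.53 with a pseudocount of 1 and -5.82 with array weights, and that of Gli2 was -1.15 with a pseudocount of 1. The calls of the wider list between CSA and CFA numbered 5 with a pseudocount of 1, 29 without a fold limit and 7 to 11 when each mouse was left out. Against CSS they numbered 8 with a pseudocount of 1, 8 at a mean FPKM of at least 5, 31 without a fold limit and 11 to 14 when each mouse was left out. For the interaction they were 23 without a fold limit and 8 to 12 when each mouse was left out, and between CSS and CFS and between CFA and CFS they stayed at 0. With a pseudocount of 1 the calls of Ihh (-1.06), Dhh (-1.42) and Gpr161 (-1.18) were lost, and Gpr161 was also lost at equal FPKM totals (-1.43). The CSS vs CFS difference of Hhip was 0.34 to 0.66 when each mouse was left out. Over all tested genes, 1601 were called between CSA and CFA with a pseudocount of 1, 1095 at a mean FPKM of at least 5 and 5978 without a fold limit, beside 2528. Between CSS and CFS 35 were called with array weights, beside 2. Between CFA and CFS 147 were called with array weights and 0 to 124 when each mouse was left out, with 124 without CFA mouse 74, beside 4. No scaling moved the median of all genes by more than 0.1 on the log2 scale. No paired analysis was possible because the groups share no replicate numbers. In CSA, Ihh rested on 0 to 4 fragments and Hhip on 27 to 39, which limits their precision.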
